A study of Mus musculus with 15 samples.

Results

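The genes described here are 9 genes of retinoic acid synthesis, binding, breakdown and reception, out of 18193 genes measured: Rdh10, Aldh1a1, Aldh1a2, Aldh1a3, Crabp1, Crabp2, Cyp26b1, Rara and Rarb. They were taken by symbol from the array annotation with earlier results in view. The probe set of each gene was chosen by its mean level across all 15 arrays, the highest being used. Gene expression had been measured in sorted astroglia from the SVZ (the subventricular zone, lining the lateral ventricles), from the hippocampus and from the cerebellum of adult mice, on 5 arrays per region. All mice were Gli1-CreER;GFAP-GFP;R26tdTomato males aged 6 to 8 weeks that had received 2 doses of 10 mg tamoxifen, and cells were sorted 3 weeks later as Gli1+ and GFAP+. In this model the Gli1 gene, a target of Sonic hedgehog signalling, drives the tamoxifen-dependent recombinase that switches on tdTomato, and a GFAP promoter drives GFP. Each array held the cells of 10 to 12 pooled mice, so values are means over animals, and the p-values measure the spread between pools. No group lacked tamoxifen or the reporters, and brain region cannot be told apart from anything else that went with the dissection of a region.

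Retinoic acid is made from vitamin A in 2 oxidations. RDH10 and related enzymes turn retinol into retinaldehyde, and the ALDH1A enzymes turn retinaldehyde into retinoic acid. CRABP proteins carry the acid in the cytosol, CYP26 enzymes break it down, and the receptors RARA and RARB, paired with RXR proteins, bind DNA and switch target genes on when retinoic acid is bound. In the adult brain the acid is known for its part in synaptic plasticity and in hippocampal neurogenesis, and the meninges are a known site of its synthesis.

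Levels are the deposited RMA values, read as log2 signal, where a difference of 1 is 2-fold. The median probe set of an array lay between 1.2 and 1.31 in SVZ, between 1.2 and 1.27 in hippocampus and between 1.12 and 1.17 in cerebellum, so levels below about 3 are in the dim part of the scale. The mean of the 8 astrocyte markers was 7.99 to 8.77 over SVZ arrays, 7.82 to 8.96 over hippocampal arrays and 8.0 to 9.44 over cerebellar arrays. A gene was called when its adjusted p in the limma fit over all 18193 genes was under 0.05. Of the astrocyte markers, Slc1a3 was called lower in both forebrain regions and Glul higher in SVZ, each against cerebellum. Gfap, which was not called, read 2.69 to 5.46 in SVZ, 6.2 to 7.6 in hippocampus and 3.26 to 6.03 in cerebellum. Replicate arrays correlated less closely in the forebrain regions, at r of 0.763 to 0.894 between SVZ arrays and 0.791 to 0.884 between hippocampal arrays, against 0.939 to 0.97 between cerebellar arrays. The poly-A control RNA, read from 12 probe sets, averaged 11.09 to 13.18 in SVZ, 11.48 to 12.9 in hippocampus and 8.49 to 12.43 in cerebellum, where cerebellum 4 and 5 had the lowest values.

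2 of the 9 genes, both synthesis enzymes, were far lower in the forebrain astroglia than in the cerebellar ones. Aldh1a1 was 38.3-fold lower in SVZ and 75.5-fold lower in hippocampus than in cerebellum, and Rdh10 was 12.6-fold lower in SVZ and 5.38-fold lower in hippocampus than in cerebellum. These are folds of signal. The forebrain levels of Aldh1a1 and the SVZ level of Rdh10 lay at the dim end of the scale, where background limits the size a fold can take. The other 7 genes had a mean level below 3 over the 15 arrays, as did 73.5% of all genes, and none of their 21 regional differences was called. In SVZ against cerebellum 2 of 9 genes were called, both lower, where 5.51% of all genes were called and 4.47% were called lower. In hippocampus against cerebellum it was again 2 of 9, both lower, where 4.78% of all genes were called and 3.97% were called lower. Both comparisons use the same cerebellar arrays. In SVZ against hippocampus limma called 0 of 9 genes, where 0.022% of all genes were called, and 2 of the 9 had an unadjusted p under 0.05, as did 7.02% of all genes. The median log2 difference of the 9 genes was 0.134 in SVZ minus cerebellum, 0.06 in hippocampus minus cerebellum and 0.062 in SVZ minus hippocampus, beside 0.068, 0.068 and -0.004 over all genes. Most of all genes are dim. Among the 4817 genes with a mean of 3 or more, the medians were -0.714, -0.698 and 0.054. With these genes fitted alone, 643 were called lower in SVZ and 550 in hippocampus, each against cerebellum. Aldh1a1 and Rdh10 belong to these brighter genes. Aldh1a1 does so only through cerebellum, since it read 3 or more on 5 arrays, all of them cerebellar. Rdh10 read 3 or more on 8 arrays. The mean thus uses the cerebellar values behind the differences.

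**Figure D1:**
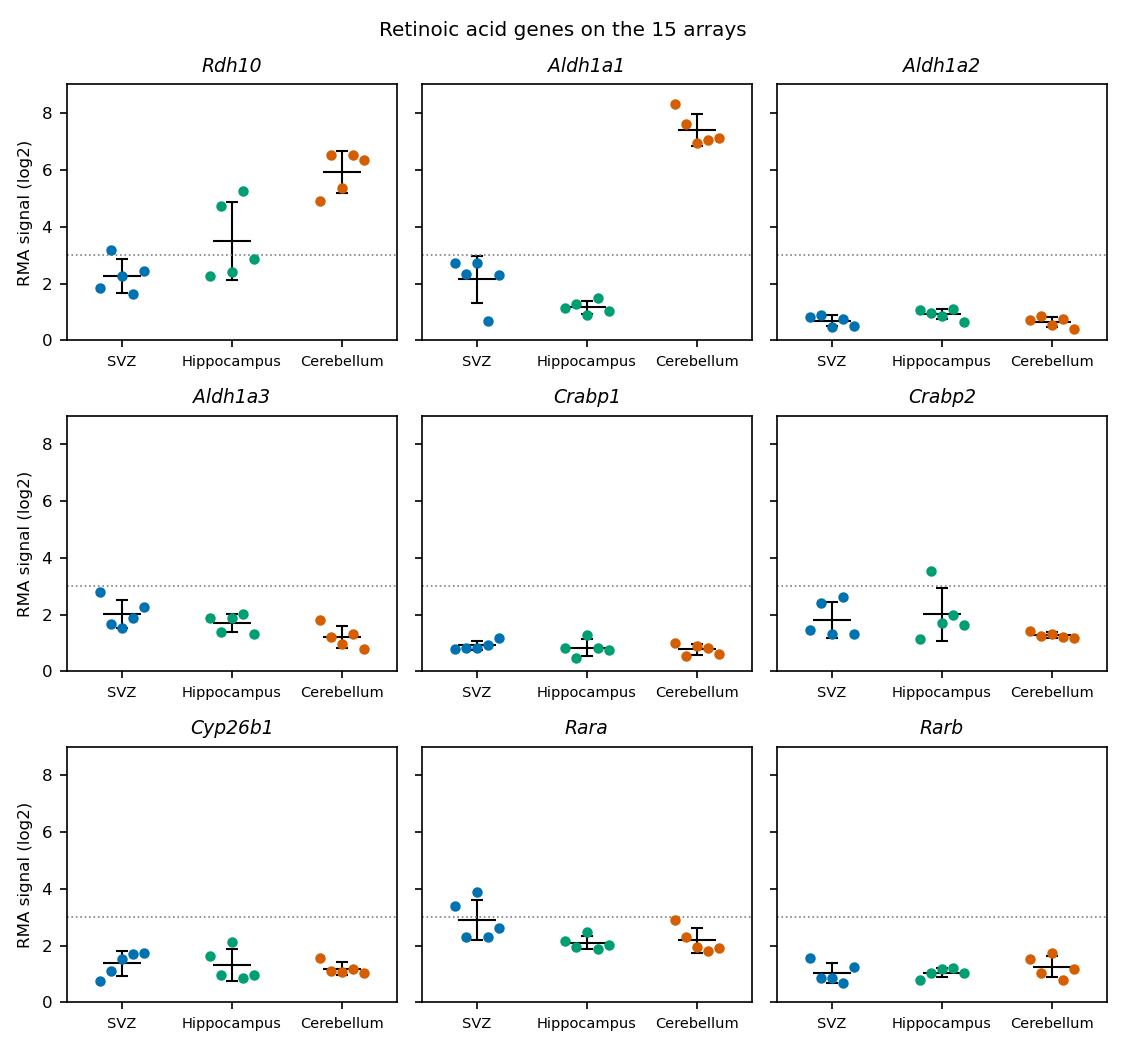
RMA signal (log2) of the 9 retinoic acid genes on each array, with SVZ, hippocampus and cerebellum side by side; points are arrays, bars are the mean and SD of 5 arrays, and the dotted line is a level of 3. Aldh1a1 and Rdh10 stand high in cerebellum, and the other 7 genes lie mostly below the line in every region.

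Rdh10, which makes retinaldehyde from retinol, read 1.86, 3.18, 2.25, 1.64 and 2.45 on SVZ arrays 1 to 5. On the hippocampal arrays it read 2.28, 4.71, 2.41, 5.25 and 2.86. On the cerebellar arrays it read 4.90, 6.51, 5.37, 6.51 and 6.36. Every SVZ array was below every cerebellar array, while hippocampus 4 reached into the cerebellar range and hippocampus 2 came close to it. Means were 2.28 ± 0.60 for SVZ, 3.50 ± 1.38 for hippocampus and 5.93 ± 0.75 for cerebellum (SD, n = 5 each). SVZ minus cerebellum was -3.65 (SE 0.57, limma adjusted p 0.00185), and hippocampus minus cerebellum was -2.43 (SE 0.57, limma adjusted p 0.0261). SVZ minus hippocampus was -1.23, with a 95% confidence interval of -2.46 to 0.01 and an adjusted p of 0.703 by limma. Less RNA per cell and fewer expressing cells cannot be told apart in such pools.

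The call of Rdh10 in hippocampus was the less stable one. It was lost when any of hippocampus 1, 3 or 5 or cerebellum 2, 4 or 5 was left out, with limma adjusted p-values of 0.0626, 0.0677, 0.061, 0.0715, 0.0718 and 0.072. With the control RNA level of each array in the fit, the difference was -2.62 (limma adjusted p 0.119) for SVZ and -1.45 (limma adjusted p 0.498) for hippocampus, each against cerebellum. The probe set used for Rdh10 had a mean of 3.9 over the 15 arrays, and the next one had 2.99. On that second probe set SVZ minus cerebellum was -2.65 (limma adjusted p 0.00755) and hippocampus minus cerebellum was -3.09 (limma adjusted p 0.00268), adjusted over all probe sets. The 2 probe sets differed in the order of the forebrain regions, since the second read 2.25 on average in SVZ and 1.81 in hippocampus, and a log2 difference of 0.44 that did not pass the test (limma adjusted p 0.863).

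Aldh1a1, which oxidises retinaldehyde to retinoic acid, showed the widest regional gap of the 9 genes. It read 2.71, 2.32, 2.71, 0.70 and 2.29 on SVZ arrays 1 to 5, and 1.15, 1.28, 0.89, 1.5 and 1.02 on the hippocampal arrays. On the cerebellar arrays it read 8.32, 7.61, 6.93, 7.04 and 7.13. No forebrain array came within 4 log2 units of the lowest cerebellar array, and SVZ 4 stood below the other SVZ arrays. Means were 2.15 ± 0.83 for SVZ, 1.17 ± 0.24 for hippocampus and 7.41 ± 0.57 for cerebellum (SD, n = 5 each). SVZ minus cerebellum was -5.26 (95% confidence interval -6.04 to -4.48, limma adjusted p 1e-06). Hippocampus minus cerebellum was -6.24 (95% confidence interval -7.02 to -5.46, limma adjusted p 1.8e-07).

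Between the forebrain regions, the SVZ minus hippocampus difference of Aldh1a1 was 0.98 (95% confidence interval 0.2 to 1.76), which did not pass the test after adjustment over all genes (limma p 0.0174, adjusted p 0.579). Aldh1a1 kept its call in both comparisons with cerebellum under every setting tried, between -5.57 and -4.87 for SVZ and between -6.53 and -6.01 for hippocampus. With dim genes left out, Aldh1a1 stayed in the fit only through its cerebellar levels. Its single probe set leaves no second reading. Aldh1a1 did not overlap between either forebrain region and cerebellum, and Rdh10 did not in SVZ. Over all genes, 6.02% lay wholly below cerebellum in SVZ and 5.3% in hippocampus. By the criteria stated for the series, a change of over 4-fold at an unadjusted p under 0.01, both genes were lower in both regions, as were 254 genes or 1.4% of those tested.

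Cerebellar neuron markers were at a mean of 1.03 to 1.79 in SVZ, 0.97 to 1.29 in hippocampus and 1.34 to 2.63 in cerebellum. Of the 6 markers, Calb1 and Pcp2 were called lower in both forebrain regions, while Calb1, Gabra6, Neurod1 and Cbln1 stayed below 3 on every array. Car8 was not called. It read 3.51 in SVZ 1 and 5.43 in SVZ 4, 1.29 to 2.11 on the remaining SVZ arrays and 1.83 to 2.58 in cerebellum. Over cerebellar arrays 1 to 5 the mean of this list was 2.63, 2.07, 1.77, 1.34 and 1.66. Cerebellum 1 and 2, the highest for these markers, were also the highest for Aldh1a1, at 8.32 and 7.61, while cerebellum 4, the lowest for the markers, had an Aldh1a1 level of 7.04. Cerebellum 3, at 1.77 for the markers, had the lowest Aldh1a1 level of the cerebellar arrays, 6.93. The part of neuronal RNA in the Aldh1a1 levels was not tested. The mean of the 6 microglial markers was higher in the forebrain regions, at 3.4 to 6.12 in SVZ, 2.65 to 5.01 in hippocampus and 1.23 to 2.56 in cerebellum. Of the 6, C1qa and Csf1r were called higher in SVZ than in cerebellum, and 1 was called higher in hippocampus. P2ry12 read 0.86 to 2.37 in SVZ and 1.07 to 2.13 in cerebellum. The part of microglia in the differences was not tested.

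The Aldh1a1 promoter is shown because its gene carried the widest difference. It spans chr19:20601718-20602017 on the plus strand of GRCm38.p6 in the RefSeq annotation, from 250 bases before to 50 bases after the transcription start. Capitals mark the octamer ATGCAAAT, the motif of POU family factors, found on either strand by a letter search.
Aldh1a1: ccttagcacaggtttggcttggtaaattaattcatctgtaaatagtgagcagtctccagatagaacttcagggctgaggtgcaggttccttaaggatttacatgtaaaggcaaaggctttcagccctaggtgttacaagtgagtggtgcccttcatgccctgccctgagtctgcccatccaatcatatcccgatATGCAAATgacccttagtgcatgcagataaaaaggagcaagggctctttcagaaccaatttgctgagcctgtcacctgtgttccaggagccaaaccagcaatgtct
The octamer was present in 1.74% of 32851 promoter windows, and among the 9 genes also in a window of Aldh1a2. Windows were given for 6 of the 9 genes. A match describes these letters only.

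Aldh1a2, a second retinaldehyde dehydrogenase, lay between 0.48 and 0.90 on SVZ arrays, 0.66 and 1.11 on hippocampal arrays and 0.41 and 0.85 on cerebellar arrays. Its differences were 0.05 in SVZ minus cerebellum, 0.28 in hippocampus minus cerebellum and -0.24 in SVZ minus hippocampus, with limma adjusted p-values of 0.871, 0.277 and 0.74. Aldh1a3, the third enzyme of this kind, read 2.78, 1.66, 1.53, 1.87 and 2.26 in SVZ, 1.88, 1.39, 1.88, 2.01 and 1.32 in hippocampus, and 1.81, 1.22, 0.95, 1.30 and 0.80 in cerebellum. The SVZ and cerebellar arrays overlapped, and SVZ minus cerebellum was 0.80 (SE 0.26, limma p 0.00756, adjusted p 0.0897). That was the smallest adjusted p among the 7 dim genes. The probe set used for Aldh1a3 had a mean of 1.64 over the 15 arrays. The others had 1.12 and 0.81, and gave 0.17 and -0.002 in the same comparison.

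Crabp1, a cytosolic carrier of retinoic acid, lay between 0.78 and 1.17 in SVZ, 0.46 and 1.29 in hippocampus and 0.54 and 1.01 in cerebellum. No difference exceeded 0.13, and the smallest limma adjusted p was 0.646. Crabp2, the carrier that passes retinoic acid to its receptors, read 1.44, 2.40, 1.32, 2.61 and 1.33 in SVZ. It read 1.13, 3.54, 1.72, 2.00 and 1.62 in hippocampus, against 1.43, 1.25, 1.32, 1.21 and 1.17 in cerebellum. Single arrays stood high in the forebrain, SVZ 2, SVZ 4 and hippocampus 2, and the cerebellar arrays lay close together. Means were 1.82 ± 0.63 for SVZ, 2.00 ± 0.92 for hippocampus and 1.28 ± 0.10 for cerebellum (SD, n = 5 each). SVZ minus cerebellum was 0.54 (limma adjusted p 0.441) and hippocampus minus cerebellum was 0.73 (limma adjusted p 0.307).

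The high arrays of Crabp2 were set beside markers of vascular cells, of meningeal fibroblasts, a cell type known for Crabp2, and of choroid plexus. The mean of the 7 endothelial and pericyte markers was highest on the same 3 arrays, at 4.01 in SVZ 2, 3.69 in SVZ 4 and 3.75 in hippocampus 2, with 3.14 in hippocampus 5 the next. Over all arrays it was 1.97 to 4.01 in SVZ, 2.25 to 3.75 in hippocampus and 1.83 to 2.61 in cerebellum. Of the 7, Pdgfrb was called higher in SVZ than in cerebellum, and Cdh5 and Pecam1 were below 3 on every array. Only Rgs5 was by itself highest on the same 3 arrays, at 8.02 in SVZ 2, 7.71 in SVZ 4 and 7.78 in hippocampus 2. It read nearly as much in SVZ 3 and SVZ 5, at 7.5 and 7.66. Pdgfrb was highest in SVZ 3, at 7.31, and read 4.76 in hippocampus 2. Cldn5 read 5.26 in SVZ 2 but 1.8 in SVZ 4. The part of these cells in the Crabp2 levels was not tested. Hippocampus 2 had the highest mean of the 10 fibroblast markers, 3.29, and of the 8 choroid plexus markers, 7.82. The choroid plexus mean ran from 1.75 to 2.5 in SVZ, 2.38 to 7.82 in hippocampus and 1.67 to 7.13 in cerebellum. It was also high in hippocampus 5, at 5.96, and cerebellum 5, at 7.13, where Crabp2 read 1.62 and 1.17. SVZ 4 had the lowest fibroblast mean, 0.93, at a Crabp2 level of 2.61. Over all arrays the fibroblast mean was 0.93 to 1.86 in SVZ, 1.39 to 3.29 in hippocampus and 1.33 to 2.37 in cerebellum. 0 of the 10 markers was called by limma in any comparison, and Lum, Col3a1, Slc6a13 and Foxc1 were below 3 on every array. Tgm2, a transglutaminase induced by retinoic acid in several cell types and chosen after its values were seen, was high on the same 3 arrays, at 5.72 in SVZ 2, 6.30 in SVZ 4 and 5.68 in hippocampus 2. Its SVZ minus cerebellum difference of 2.13 did not pass the test (limma adjusted p 0.124). The further Tgm2 probe sets with means of 2.72 and 2.23 over the 15 arrays were highest on the same 3 arrays. Those with means of 1.74, 1.51 and 1.12 were not. They read 1.74, 2.43 and 1.01 in SVZ 4, against 2.99, 2.49 and 1.4 in SVZ 5.

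**Figure D2:**
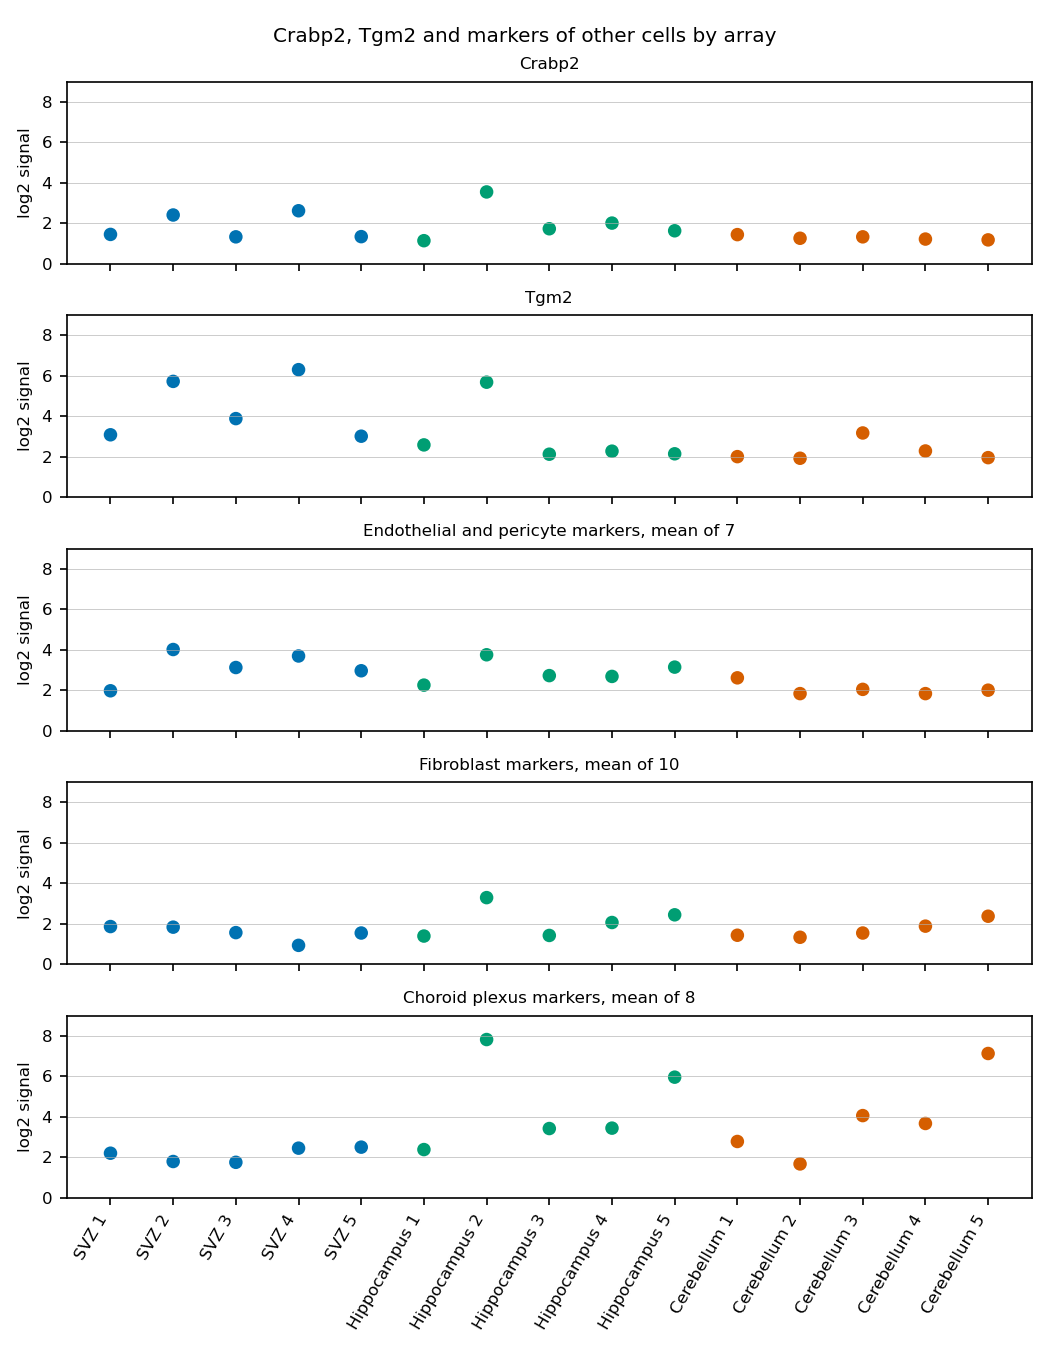
RMA signal (log2) on each of the 15 arrays for Crabp2, for Tgm2, and for the means of 7 endothelial and pericyte markers, 10 fibroblast markers and 8 choroid plexus markers, with 1 point per array. Crabp2, the probe set used for Tgm2, and the endothelial and pericyte mean are highest on SVZ 2, SVZ 4 and hippocampus 2. Of these 3 only hippocampus 2 is high for the fibroblast and choroid plexus means. The choroid plexus mean is also high on hippocampus 5 and cerebellum 5.

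Cyp26b1, an enzyme that breaks retinoic acid down, lay between 0.75 and 1.74 in SVZ, 0.87 and 2.14 in hippocampus and 1.03 and 1.56 in cerebellum. The ranges overlapped throughout, and its differences of 0.18 in SVZ minus cerebellum, 0.12 in hippocampus minus cerebellum and 0.06 in SVZ minus hippocampus had limma adjusted p-values of 0.715 or more. Among the receptors, Rara read 3.38, 2.30, 3.89, 2.30 and 2.62 in SVZ, 2.17, 1.95, 2.46, 1.89 and 2.02 in hippocampus, and 2.91, 2.31, 1.96, 1.82 and 1.91 in cerebellum. SVZ 1 and SVZ 3 were the highest arrays. Rara differed by 0.72 in SVZ minus cerebellum (limma p 0.0354, adjusted p 0.202) and by 0.80 in SVZ minus hippocampus (limma p 0.0209, adjusted p 0.6), and neither passed. Hippocampus minus cerebellum was -0.08 (limma adjusted p 0.887). Rarb, a receptor whose own gene is induced by retinoic acid, lay between 0.70 and 1.55 in SVZ, 0.79 and 1.21 in hippocampus and 0.80 and 1.73 in cerebellum. Its differences were -0.22 in SVZ minus cerebellum, -0.21 in hippocampus minus cerebellum and -0.01 in SVZ minus hippocampus, with limma adjusted p-values of 0.559, 0.576 and 0.993. Over the 7 dim genes the 95% confidence intervals of the 21 differences ran from -1.01 to 1.56.

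**Figure D3:**
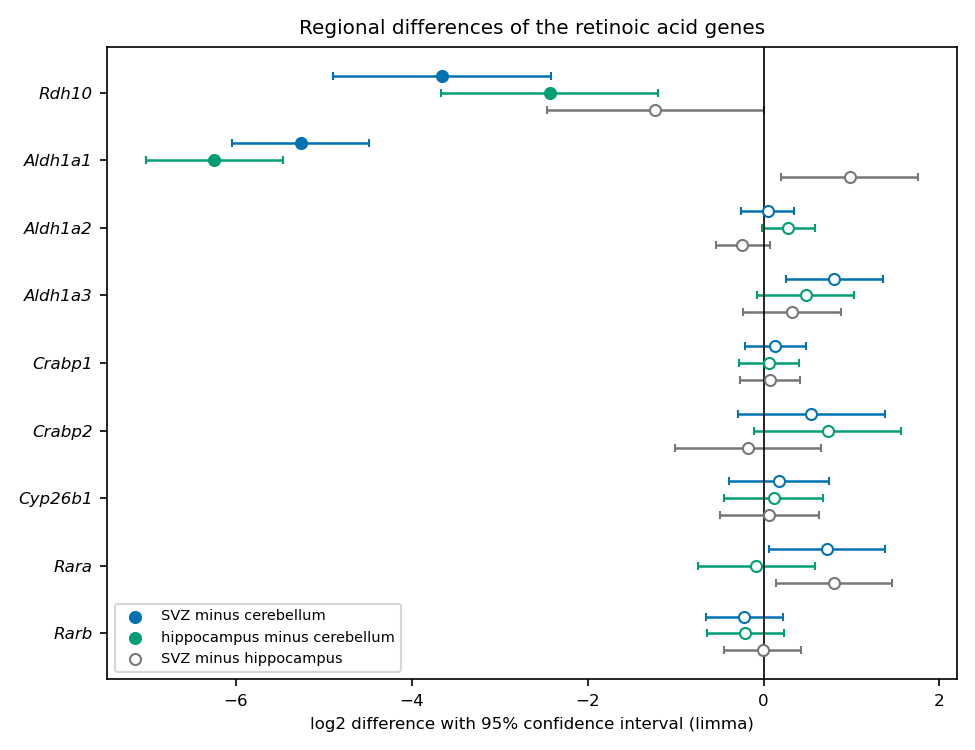
Log2 differences of the 9 genes with 95% confidence intervals from limma, for SVZ minus cerebellum, hippocampus minus cerebellum and SVZ minus hippocampus; filled points have an adjusted p under 0.05 and open points do not. Aldh1a1 and Rdh10 lie far to the left in both comparisons with cerebellum, and the intervals of the other genes stay between -1.01 and 1.56.

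Rarb and Cyp26a1, a second breakdown enzyme, are classical target genes of retinoic acid, and their promoters are shown because both hold the response element by which receptors act, the DR5 retinoic acid response element. The windows are chr14:16575427-16575726 on the minus strand for Rarb and chr19:37697558-37697857 on the plus strand for Cyp26a1, in GRCm38.p6 from RefSeq, with the element in capitals.
Rarb: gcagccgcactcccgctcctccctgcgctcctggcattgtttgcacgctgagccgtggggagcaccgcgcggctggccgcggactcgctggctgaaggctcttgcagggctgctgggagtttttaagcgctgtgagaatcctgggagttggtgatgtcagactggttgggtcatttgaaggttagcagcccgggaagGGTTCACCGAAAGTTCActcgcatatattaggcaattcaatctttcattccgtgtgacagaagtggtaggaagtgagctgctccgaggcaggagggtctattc
Cyp26a1: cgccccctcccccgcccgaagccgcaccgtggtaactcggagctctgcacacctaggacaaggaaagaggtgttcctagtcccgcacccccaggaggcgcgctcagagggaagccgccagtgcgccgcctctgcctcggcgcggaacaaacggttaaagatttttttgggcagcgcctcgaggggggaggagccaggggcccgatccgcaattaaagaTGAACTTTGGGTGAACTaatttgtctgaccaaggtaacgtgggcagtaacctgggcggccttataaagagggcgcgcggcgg
The element was found in 32 of 32851 windows, or 0.0974%, searched on both strands. It began 53 bases before the start in Rarb and 32 bases before it in Cyp26a1, where it was read on the opposite strand. Both genes were dim in all regions, Cyp26a1 at means of 0.96 in SVZ, 0.91 in hippocampus and 0.77 in cerebellum.

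Of the wider retinoid pathway, 47 further genes were measured, of which 10 had a mean of 3 or more. In SVZ against cerebellum 2 were called higher and 2 lower, in hippocampus against cerebellum 1 was called higher and 3 lower, and the rest, 43 in each, were not called. These 4 of 47 in each comparison stand beside 5.51% of all genes called in SVZ against cerebellum and 4.78% in hippocampus against cerebellum. In SVZ against hippocampus limma called 0 of 47, and 4, or 8.51%, had an unadjusted p under 0.05, beside 7.02% of all genes. Their median log2 difference was 0.188 in SVZ minus cerebellum, 0.074 in hippocampus minus cerebellum and 0.082 in SVZ minus hippocampus.

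The genes called lower were all dehydrogenases or reductases, a group of 15. In SVZ it was 2 of the 15 and in hippocampus 3, beside 4.47% and 3.97% of all genes called lower. Of the 4817 genes with a mean of 3 or more, fitted alone, 643 and 550 were called lower. Rdh11, Rdh14, Dhrs3, Dhrs4 and Adh5 of this group were among the 10 retinoid genes with such a mean. Rdh14, a retinol and retinaldehyde oxidoreductase, read 5.98, 5.13, 5.92, 4.87 and 4.53 in SVZ, 5.82, 5.80, 5.03, 3.63 and 4.72 in hippocampus, and 7.07, 7.29, 7.29, 7.20 and 7.10 in cerebellum. Every forebrain array lay below every cerebellar array, with differences of -1.90 for SVZ (limma adjusted p 0.0105) and -2.19 for hippocampus (limma adjusted p 0.00407). The other 2 probe sets of Rdh14, with means of 1.01 and 0.94 over the 15 arrays, gave no call, at -0.35 and 0.008 for SVZ and at -0.18 and 0.24 for hippocampus. Dhrs4, a peroxisomal reductase of retinaldehyde, averaged 2.3 in SVZ, 3.11 in hippocampus and 5.28 in cerebellum. Its differences were -2.98 for SVZ (limma adjusted p 2.58e-05) and -2.16 for hippocampus (limma adjusted p 0.00039), and its arrays did not overlap with cerebellum either. Its second probe set gave -2.24 for SVZ (limma adjusted p 0.0241) and -1.87 for hippocampus, which did not pass (limma adjusted p 0.0627). On that probe set the hippocampal arrays reached up to 3.1 and the cerebellar arrays down to 2.83. Adh5, an alcohol dehydrogenase best known for formaldehyde clearance, was lower in hippocampus than in cerebellum, at 7.3 against 8.62 (difference -1.33, limma adjusted p 0.0373). Its second probe set, with a mean of 1.26, gave 0.47 (limma adjusted p 0.532). The call of Adh5 was lost under 15 of 26 settings, among them without hippocampus 1, 3 or 5 or without any one cerebellar array, with differences of -1.52 to -1.11 as single arrays were left out. With the control RNA level of each array in the fit, Dhrs4 was the one retinoid gene outside the 9 that kept its calls, and Rdh14, Adh5, Fabp5 and Meis2 lost theirs.

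Dhrs3, a reductase that turns retinaldehyde back into retinol and is known to pair with RDH10, stood the other way, and was chosen after its values were seen. It averaged 5.97 in SVZ and 5.66 in hippocampus, against 4.06 in cerebellum. The differences of 1.91 for SVZ (limma adjusted p 0.0853) and 1.61 for hippocampus (limma adjusted p 0.158) did not pass the test.

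Fabp5, a fatty acid binding protein that can also carry retinoic acid, read 9.69, 8.80, 9.85, 9.40 and 8.30 in SVZ, 10.09, 8.40, 9.57, 9.16 and 8.74 in hippocampus, and 7.93, 7.83, 8.12, 7.88 and 7.57 in cerebellum. Every forebrain array was above every cerebellar array, and the differences were 1.34 for SVZ (limma adjusted p 0.0311) and 1.33 for hippocampus (limma adjusted p 0.0361). Its second probe set gave 1.3 for SVZ (limma adjusted p 0.0553) and 1.0 for hippocampus (limma adjusted p 0.146), which did not pass. The call of Fabp5 was lost in SVZ without SVZ 1, 3 or 4 or cerebellum 1, 2, 4 or 5, with differences of 1.18 to 1.57 over the arrays left out in turn. In hippocampus it was lost without hippocampus 1, 3 or 4 or any one cerebellar array, with differences of 1.1 to 1.52. Meis2, a homeodomain factor induced by retinoic acid in the mouse limb, read 1.71, 3.71, 4.60, 4.30 and 4.91 in SVZ and lay at or below 0.87 on every cerebellar array. It was called higher in SVZ than in cerebellum (difference 3.12, limma adjusted p 0.00483). Its other 3 probe sets gave smaller differences of 1.47, 1.66 and 0.44, and none passed (limma adjusted p 0.136, 0.302 and 0.161). In hippocampus its level varied between 0.89 and 3.05, and the SVZ minus hippocampus difference of 2.12 did not pass (limma adjusted p 0.43).

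**Figure D4:**
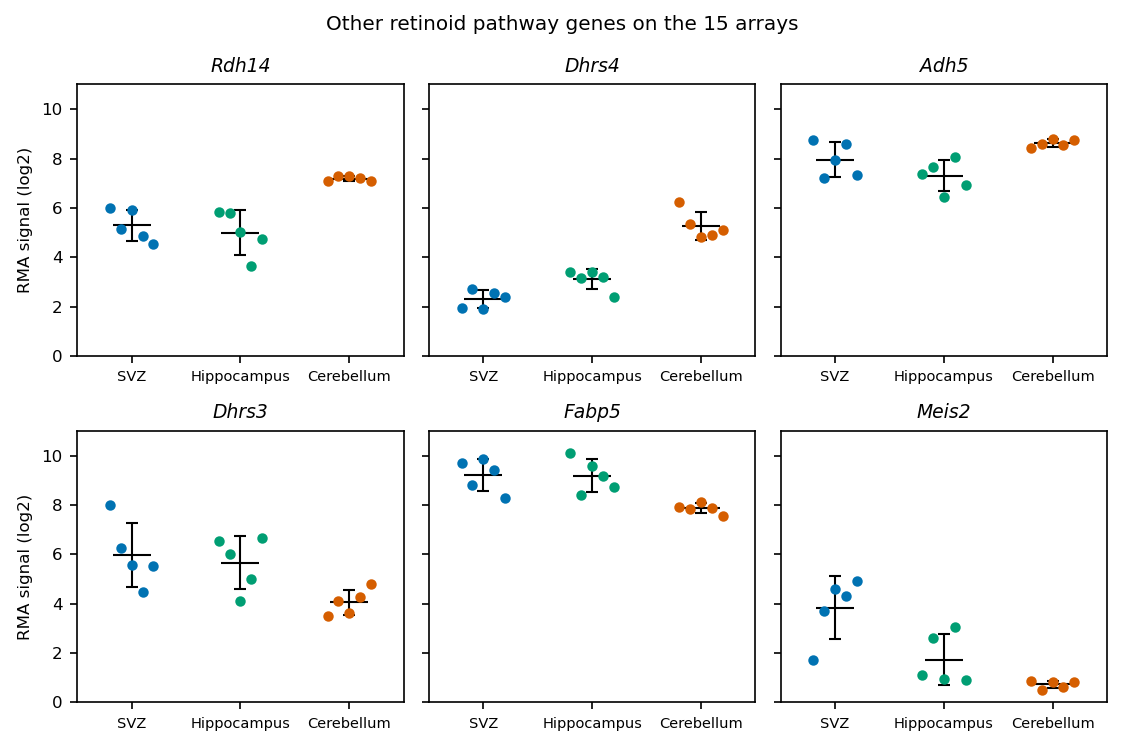
RMA signal (log2) on each array for 6 further retinoid genes in SVZ, hippocampus and cerebellum; points are arrays and bars are the mean and SD of 5 arrays. Rdh14 and Dhrs4 are lower in both forebrain regions than in cerebellum, Fabp5 is higher in both, and Meis2 is high on 4 of 5 SVZ arrays.

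Further genes, each with the highest mean signal of its role, were not called in any comparison. Dgat1, which can esterify retinol for storage, averaged 3.12 in SVZ, 2.68 in hippocampus and 2.76 in cerebellum. Aldh8a1, of the retinal oxidation group, averaged 1.7 in SVZ, 1.5 in hippocampus and 1.14 in cerebellum. Rxrb, a partner of the retinoic acid receptors, averaged 2.02 in SVZ, 2.45 in hippocampus and 3.04 in cerebellum, and the coactivator Ncoa2 averaged 3.77 in SVZ, 4.49 in hippocampus and 4.87 in cerebellum. Rarres2, the chemerin gene, had the highest mean signal of the listed target genes. It averaged 5.71 in SVZ, 5.77 in hippocampus and 7.74 in cerebellum. Its differences from cerebellum, -2.02 for SVZ (limma adjusted p 0.146) and -1.97 for hippocampus (limma adjusted p 0.168), did not pass.

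The genes whose pattern was most like each of the 2 called enzymes were sought among 4815 genes by Pearson's r over the 15 arrays, as a description, since arrays of a region share their region. For Aldh1a1 they were Frrs1l (r 0.979), Scrn1 (r 0.971) and Mybpc1 (r 0.963). After region means were taken out, the r of these genes with Aldh1a1 was 0.485, 0.694 and 0.096. For Rdh10 they were Mtss1 (r 0.93), Cpne2 (r 0.928) and Pcsk6 (r 0.921), and without region means 0.853, 0.802 and 0.793. Aldh1a1 and Rdh10 themselves had an r of 0.77 over the 15 arrays and 0.158 within regions.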

How the data were processed

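Affymetrix mouse arrays of sorted cells, 5 per region, were used as grouped by the titles. The log2 values had been normalized by the authors with RMA before they were deposited, per the submitters' processing notes. No source used here names the log base, which was taken as 2 because array maxima lay between 14.97 and 15.08, the RMA version or scan dates. No detection calls were used. RNA was amplified before labelling, per the labels' protocols. Of 45101 probe sets, 34945 carried 1 symbol, 932 several and 9224 none; 34754 symbols were updated through Entrez identifiers. The probe set with the highest mean represented each of 18193 genes. limma 3.58.1 in R 4.3.3 fitted region means over all 15 arrays, with Benjamini-Hochberg adjustment over all genes. The number of arrays limits the precision. The fit was tested on simulated data.

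The 9 genes, the lists and the tests were chosen with earlier results of these data known. Genes named were all 9, each other retinoid gene called, the one with the highest mean per role, and for genes with a mean above 3 the 3 most alike by r; others are marked. Of 53 further retinoid genes listed, 47 were measured and 6 are not analysed here. Alternatives were the replicate block, quantile normalization, median centring, dim genes left out, the mean of probe sets or another probe set, array weights, a trended spread, only the regions compared, the 4-fold rule, the control RNA as a covariate, and leaving out arrays. Same-numbered arrays of different regions correlated, as deviations from region means, at r of -0.12 to 0.138. Between SVZ and cerebellum each same-numbered r was above the best r with other numbers. The margin ran from 0.027 against 0.026 for replicate 1 to 0.111 against 0.008 for replicate 2. In the other comparisons some were above and some below, such as -0.12 against 0.385 for replicate 2 of hippocampus and cerebellum. The main fit did not take the numbers as pairs, and the replicate block was fitted as an alternative.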

Additional observations from a re-analysis of the deposited data

Results flagged for a closer look

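3 of 60 groups of 5 arrays held an array far from the other 4, and chance gives about 1 in 20. Aldh1a1 read 0.7 in SVZ 4, where the other SVZ arrays read 2.29 to 2.71. Without SVZ 4 the SVZ minus cerebellum difference of Aldh1a1 was -4.9, and it stayed called. Dhrs4 read 2.39 in hippocampus 5, where the other hippocampal arrays read 3.17 to 3.41. Dgat1 read 1.69 in cerebellum 3, where the other cerebellar arrays read 2.92 to 3.13.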

How the results depend on the processing

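Of 690 recomputed differences of the 9 genes, 644 kept their sign and side of the threshold, 12 fell short of the threshold and 34 changed sign. Some settings could not change the difference itself, only its p-value, such as leaving out an array of a region outside the comparison. The count therefore overstates how far the signs were tried. Of the 9 genes, 1 was called in SVZ against cerebellum with the control RNA as a covariate. In hippocampus against cerebellum 1 was called with quantile normalization, with only the 2 regions compared, with the control RNA as a covariate, without SVZ 1 and hippocampus 3, and without cerebellum 4 and 5. Leaving out 1 array at a time gave 2 in SVZ and 1 to 2 in hippocampus. Under these settings the adjusted p of Rdh10 in hippocampus against cerebellum was 0.0739 (difference -1.95), 0.054, 0.498, 0.0783 and 0.204 (difference -2.09). Of the other retinoid genes, 1 was called with the control RNA as a covariate in each comparison with cerebellum, and 2 in each without cerebellum 4 and 5. The 4-fold rule gave 2 in SVZ against cerebellum and 1 in SVZ against hippocampus. Leaving out 1 array gave 3 to 5 in SVZ and 2 to 5 in hippocampus, each against cerebellum. The causes were not tested.

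Signs changed as follows. SVZ minus hippocampus of Rdh10 was -1.23 on the probe set used and 0.44 on the second one. Aldh1a2 in SVZ minus cerebellum was -0.04 with quantile normalization, -0.004 without cerebellum 4 and 5, and -0.01 to 0.1 with 1 array left out. Aldh1a3 in SVZ minus cerebellum was 0.80 on the probe set used and -0.002 on a further one, and in SVZ minus hippocampus -0.02 with the mean of probe sets and -0.09 and -0.28 on further ones. Crabp1 was -0.05 in SVZ minus cerebellum with the control RNA as a covariate. In hippocampus minus cerebellum it was -0.05 with quantile normalization, -0.11 with the control RNA and -0.05 without SVZ 1 and hippocampus 3. With 1 array left out it ran from -0.05 to 0.15 there, and from -0.02 to 0.19 in SVZ minus hippocampus, where Crabp2 ran from -0.4 to 0.2. Cyp26b1 was -0.13 in SVZ minus cerebellum and -0.17 in hippocampus minus cerebellum with the control RNA, and -0.09 in hippocampus minus cerebellum without SVZ 1 and hippocampus 3. With 1 array left out it ran from -0.09 to 0.23 in hippocampus minus cerebellum and from -0.05 to 0.27 in SVZ minus hippocampus. Rara in hippocampus minus cerebellum was 0.22 with quantile normalization and -0.17 to 0.1 with 1 array left out. Rarb in SVZ minus hippocampus was 0.04 with quantile normalization, 0.01 with median centring and -0.14 to 0.07 with 1 array left out.

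Over all genes, calls against cerebellum fell to 585 in SVZ and 469 in hippocampus with quantile normalization, 198 and 226 with the control RNA, and 368 and 358 without cerebellum 4 and 5, beside 1002 and 869. Quantile normalization moved the share of higher calls to 37.8% in SVZ and 33.0% in hippocampus, beside 18.8% and 16.9%. With the replicate block, 2, 2 and 0 of the 9 genes were called in SVZ against cerebellum, hippocampus against cerebellum and SVZ against hippocampus, among 1011, 814 and 4 of all genes. Dim genes are limited by background, and no detection calls were used.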
